A study of Saccharomyces cerevisiae with 3 samples.

Results

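The TIR and DAN genes of the budding yeast Saccharomyces cerevisiae code for cell wall mannoproteins, and 7 of them are described here: TIR1, TIR2, TIR3, TIR4, DAN1, DAN3 and DAN4. Members were chosen by gene symbol in the platform annotation, and a member counted as measured where a probe set was annotated to it alone. That held for 6 of the 7, among 5656 genes measured in all. DAN3 is listed in the RefSeq gene table (assembly R64) as a synonym of PAU24, a seripauperin gene, and it had no probe set of its own. The transcript signals come from 3 independent steady-state chemostat cultures, each hybridized to 1 Affymetrix array, and together they form 1 group. Glucose limited growth and was fed at 7.5 g per litre, beside zinc sulphate heptahydrate at 4.5 mg per litre and ammonium sulphate at 5.0 g per litre. Cells grew at pH 5.0 and 30 °C at a dilution rate, and hence growth rate, of 0.10 per h, and sparged air kept dissolved oxygen over 80% of saturation. No strain is named in the labels, and with 1 group there was no contrast between conditions and no test.

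Tir and Dan proteins are rich in serine and alanine, carry a glycosylphosphatidylinositol (GPI) anchor on their way to the surface, and end up linked to the glucan of the cell wall. Yeast is known for making them when oxygen is scarce, when they take the place of the wall proteins of aerobic cells such as Cwp1 and Cwp2. In aerobic cells repressors such as Mot3 and Rox1 are known to hold DAN genes down together with the Tup1-Cyc8 corepressor, and the sterol-responsive activator Upc2 switches them on when oxygen and sterols run low. TIR1, TIR2 and TIR4 are also known as cold-induced genes.

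In these aerobic cultures 5 of the 6 measured members gave a signal above the sense-strand control probe sets on every array, and 1, DAN1, did not. The brightest of these controls, which have no labelled target, read 23.2, 26.3 and 24.2 on the arrays of cultures 1, 2 and 3, and a gene at or under that level may show nonspecific signal alone. Of all 5656 genes, 74.8% read above them on every array. Genes are named dim below the 30th percentile of mean signal (48.3) and bright from the 90th (590), a description of brightness on the array that does not order genes by transcript number. DAN1 was the 1 dim gene among the 6, beside 30.0% of all genes by construction, and none was bright, beside 10% of all genes. These signals were known when the members were chosen, so they are a description.

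Each array had its own overall level, which bears on every value below. Over all genes the arrays of cultures 1, 2 and 3 had median signals of 54.7, 127 and 96.7, and no source used here states how the authors scaled them. Probe sets for the hybridization controls, which are added in fixed amounts, had medians of 81.2, 131 and 101. Taken probe set by probe set, their median ratio to culture 1 was 1.24 for culture 2 and 0.84 for culture 3, so that whether culture 3 read above or below culture 1 turned with the way of summarizing them. The same ratio for the genes that were not dim was 2.31 and 1.74. Deposited signals are therefore given first, and then log2 deviations of a gene from its 3-culture mean with the arrays brought to a common median, which set a gene against the typical gene of the same array. Precision is limited by the number of arrays, n = 3 for every mean and SD.

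The TIR genes differed in how they varied between cultures. TIR1, a wall mannoprotein needed for anaerobic growth, had deposited signals of 107, 245 and 120 in cultures 1, 2 and 3, a mean of 158 ± 76.2 (SD, n = 3). Culture 2 was well above the other two, and on that array the median gene was high too. At a common median the deviations of TIR1 in cultures 1, 2 and 3 were 0.21, 0.20 and -0.41, so that culture 3 was its low point. A deviation at least as low in culture 3 was seen in 1.52% of the 3959 genes that were not dim.

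TIR2, a cold-induced relative of TIR1, read 45.3, 117 and 88.6 in cultures 1, 2 and 3 (83.8 ± 36.3, SD, n = 3). The value in culture 1 lay under the limit for dim, and all 3 lay above the sense-strand controls. Its signal followed the array medians closely. At a common median the deviations were -0.11, 0.05 and 0.06, a range of 0.17 on the log2 scale or 1.13-fold.

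TIR3, another mannoprotein needed for anaerobic growth, hardly differed between arrays as deposited, at 195, 213 and 193 in cultures 1, 2 and 3 (200.1 ± 10.8, SD, n = 3). Its log2 range of 0.14 was the narrowest of the 3959 genes, whose median range as deposited was 1.22. Since the typical gene was 2.31 times as high in culture 2 as in culture 1, the same values set against the rest of each array gave deviations of 0.63, -0.45 and -0.18 in cultures 1, 2 and 3. Put as a place on the array, the TIR3 probe set read above 82.1% of genes in culture 1, 65.3% in culture 2 and 69.5% in culture 3.

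TIR4, the third of the TIR genes needed for anaerobic growth, had a course close to that of TIR3, their distance over the 3 cultures, 0.18, being the smallest of the 15 pairs of measured members. Its deposited signals were 139, 138 and 116 in cultures 1, 2 and 3 (131 ± 13.4, SD, n = 3), the 4th narrowest range of all genes that were not dim at 0.27. TIR4 was also 1 of only 11 genes whose deposited signal was highest in culture 1, which is 0.278% of genes that were not dim. Its margin over culture 2 was only 0.01 on the log2 scale. TIR3 and TIR4 were the 2 members with a deposited log2 range within 0.5, beside 1.52% of genes that were not dim. This was not particular to them. Among the other cell wall mannoproteins listed below, TIP1, SED1 and CCW12 were within 0.5 as well, at 0.29, 0.30 and 0.38, and the rest were not. The seripauperin genes PAU3 and PAU7 were too, at 0.30 and 0.31. At a common median TIR4 deviated by 0.76, -0.46 and -0.30, and its place on the array was above 75.5% of genes in culture 1, 52.9% in culture 2 and 55.2% in culture 3.

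**Figure D1:**
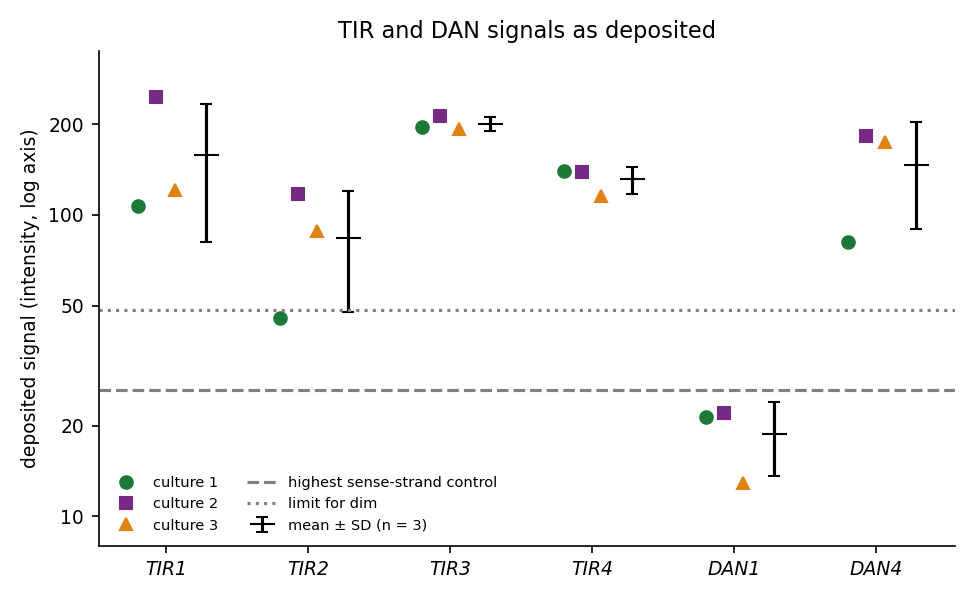
Deposited signal (intensity, log axis) of the 6 measured TIR and DAN genes, with 1 point per culture and the mean ± SD over the 3 cultures as a bar. TIR3 and TIR4 stay nearly level across cultures, TIR1, TIR2 and DAN4 are lowest in culture 1, and all DAN1 points lie under the highest sense-strand control at 26.3 (dashed line); the dotted line at 48.3 is the limit for dim.

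The measured DAN genes lay far apart in brightness. DAN1, a mannoprotein linked to sterol uptake without oxygen, had deposited signals of 21.3, 22.1 and 12.9 in cultures 1, 2 and 3 (18.8 ± 5.12, SD, n = 3). On each array this was below the highest sense-strand control, at 0.92, 0.84 and 0.53 times its signal. The common-median deviations of DAN1, 0.89 in culture 1, -0.26 in culture 2 and -0.63 in culture 3, are thus those of a signal in the nonspecific range.

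DAN4, a mannoprotein of the same family made without oxygen, read 81.5 in culture 1, 183 in culture 2 and 175 in culture 3 (146 ± 56.4, SD, n = 3). All 3 values were at least 3.51 times the highest sense-strand control of their array. At a common median DAN4 deviated by -0.09, -0.13 and 0.22, so it was highest in culture 3 by a small margin, with a log2 range of 0.34. The median range over all genes that were not dim was also 0.34.

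DAN3 can be read only through probe sets that it shares with other seripauperin genes. One of them, annotated to 7 genes, read 267, 244 and 148 in cultures 1, 2 and 3, and the other, annotated to 3 genes, read 126, 143 and 89.8. Neither value belongs to DAN3 alone, and the part of DAN3 in them cannot be told apart. As deposited both shared probe sets were lowest in culture 3, as were 2 of the 5 members that were not dim, TIR3 and TIR4. Beside these stand 40 of the 3959 genes that were not dim. For TIR3 the margin under culture 1 was only 0.02 on the log2 scale. DAN1 was also lowest in culture 3, but its signal was in the nonspecific range.

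Set against the typical gene, some members were high in culture 1 and others stayed with the array. TIR3, TIR4 and DAN1 ranged over more than 2-fold between cultures at a common median, with 2.12-fold, 2.33-fold and 2.88-fold, beside 3.49% of the genes that were not dim, a class that leaves DAN1 out. Since the members were picked with such values known, this share is given for scale and no test was made. Without culture 1 no member ranged over 2-fold, beside 1.92% of genes that were not dim, and for DAN1 the range shrank to 0.36 on the log2 scale once signals were floored at the sense-strand controls. TIR1, TIR2 and DAN4 ranged over 1.54-fold, 1.13-fold and 1.27-fold.

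The median deviation of the 5 members that were not dim was 0.21, -0.13 and -0.18 in cultures 1, 2 and 3, where that of all genes that were not dim was 0.01 on each array. With DAN1, whose signal was in the nonspecific range, it was 0.42, -0.19 and -0.24. At a common median 4 of 6 members were highest in culture 1 (TIR1, TIR3, TIR4 and DAN1), beside 32.1% of genes that were not dim. As deposited 1 was (TIR4), beside 0.278% of those genes. With the hybridization controls 2 were (TIR4 and DAN1), and the share over all genes was not taken there. At a common median the margin of TIR1 over culture 2 was 0.01 on the log2 scale, and with log2(signal + 16) its highest culture was culture 2. A deviation at or above that of TIR3 in culture 1 was found in 0.682% of genes that were not dim, and at or above that of TIR4 in 0.48%.

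**Figure D2:**
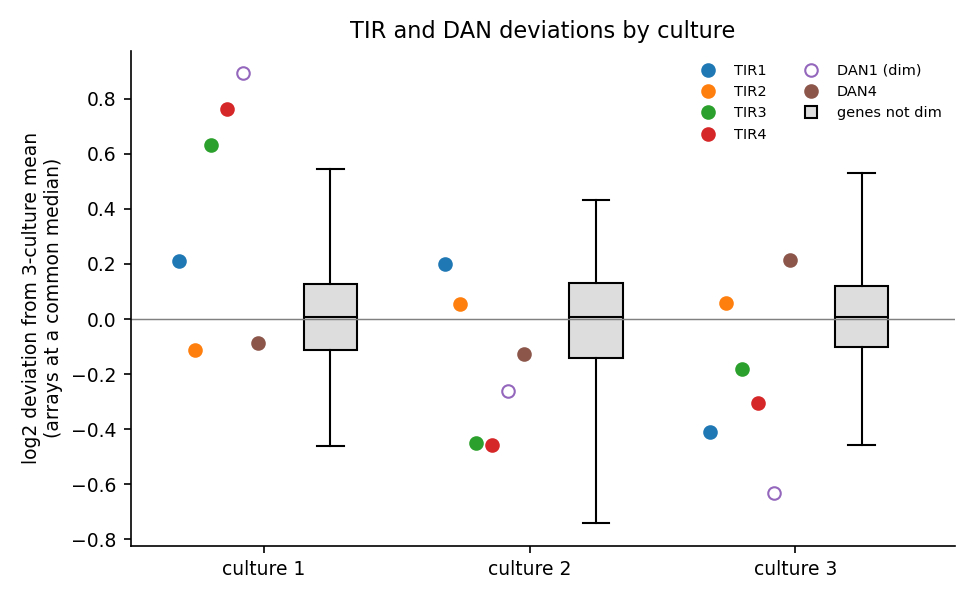
Log2 deviation of each gene from its 3-culture mean with the arrays at a common median, per culture, for the TIR and DAN genes (points, DAN1 open because it was dim) and for the 3959 genes that were not dim (box from the 25th to the 75th percentile with the median, whiskers from the 1st to the 99th percentile). In culture 1 TIR3 (0.63) and TIR4 (0.76) lie above the upper whisker, while TIR1, TIR2 and DAN4 lie within the whiskers in all 3 cultures.

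Which members ranged over 2-fold depended on how the arrays were scaled. As deposited they were TIR1, TIR2 and DAN4, at log2 ranges of 1.20, 1.37 and 1.17, beside 75.5% of genes that were not dim. Each of these 3 was lowest in culture 1, as were 98.2% of genes. With arrays scaled to the hybridization controls they were TIR2 and DAN4, at 1.16 and 1.30, beside 59.4% of genes, and TIR3 and TIR4 ranged over 0.40 and 0.36. Quantile normalization and cyclic loess gave TIR3 1.10 and 1.11 and TIR4 1.23 and 1.26, close to the common-median values. What does not depend on a shift of whole arrays is the unequal course of the members: TIR3 and TIR4 stood 1.08 and 1.22 (log2) higher in culture 1 than in culture 2 relative to the median gene, and TIR1, TIR2 and DAN4 stood 0.01, -0.17 and 0.04 from it.

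**Figure D3:**
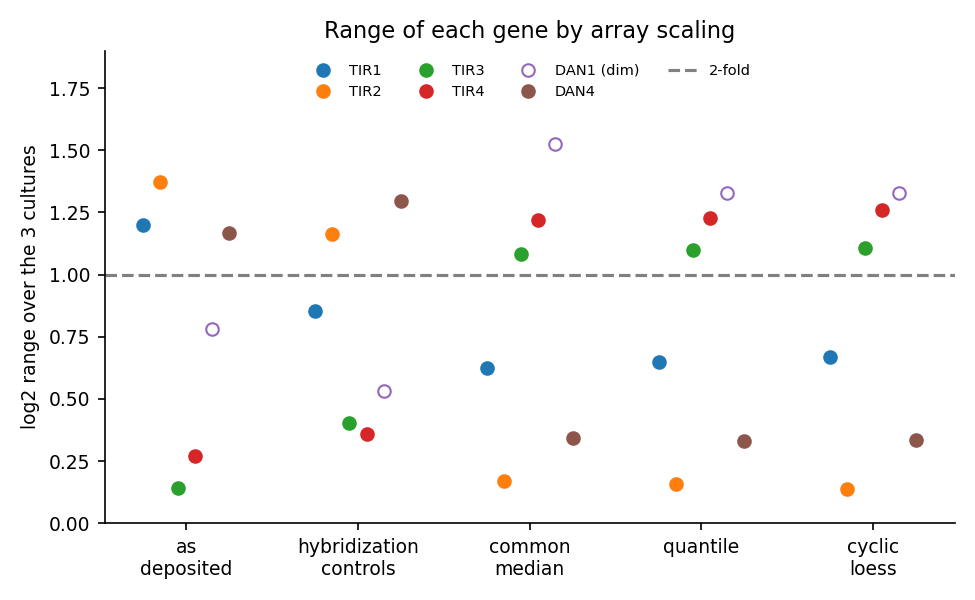
Log2 range over the 3 cultures of each TIR and DAN gene under 5 ways of scaling the arrays, with the dashed line at 2-fold (1 on the log2 scale) and DAN1 open because it was dim. TIR3 and TIR4 lie at 0.14 and 0.27 as deposited and at 1.08 and 1.22 at a common median, while TIR2 lies at 1.37 as deposited and 0.17 at a common median.

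TIR4 and TIR2 lie next to each other on chromosome XV on opposite strands, and they differed in their course, with deviations of 0.76 and -0.11 in culture 1. DAN1 and DAN4 are listed next to each other on the same strand of chromosome X, but the signal of DAN1 was too low to set their courses side by side. On the other side of TIR2 lies AUS1, a transporter that takes up sterols without oxygen, which was dim at 38.0 ± 20.4 (SD, n = 3) and deviated by -0.12, 0.27 and -0.15 in cultures 1, 2 and 3. Next to TIR3, the peroxiredoxin gene DOT5 read 163 ± 61.2, with deviations of 0.12, 0.02 and -0.14. Beside TIR1, YER010C read 123 ± 49.5 and YNCE0012W, an RNA gene, 138 ± 82.2, while YJR149W next to DAN1 was dim at 44.5 ± 21.1. YOR008C-A next to TIR4 and YJR151W-A next to DAN4 gave almost no signal, at 0.73 ± 0.57 and 1.01 ± 0.16.

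The genes whose course was most like that of a member were sought by the Euclidean distance between common-median deviations over the 3 cultures, a measure that with so few points many genes satisfy. The gene nearest to TIR3 was TIP1, an abundant cell wall mannoprotein of the same family, at a distance of 0.12. TIP1 read 5362, 6553 and 5830 in cultures 1, 2 and 3, and deviated by 0.53, -0.39 and -0.14. The gene nearest to TIR4 was PAU7, a seripauperin, at a distance of 0.04, with signals of 169, 162 and 137. The PAU7 probe set carries a letter code for sequence shared with other family members, so its signal is uncertain as that of 1 gene. TIR1 was nearest to LNP1, a protein of endoplasmic reticulum junctions, at 0.02, TIR2 to CIS1 at 0.004 and DAN4 to SEC7, a factor of Golgi transport, at 0.003. The median course of the 5 members that were not dim lay nearest to GLN4, YIL055C, MMS2, CIT1 and DDP1, each at 0.06, and 83 genes lay within 0.1 of it. The deviations of a gene average out over the 3 cultures and those of this median course do not. No gene could therefore match it fully, and these distances are not comparable with those to single members.

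A high deviation in culture 1, as in TIR3 and TIR4, was also present in the seripauperins, small proteins of the same wider family. A deviation over 0.5 in culture 1 was found in 2 of the 5 members that were not dim and in 10 of 10 PAU genes with a probe set annotated to 1 gene, at 0.59 to 1.17, beside 1.34% of the genes that were not dim. Each of these probe sets carries a letter code, so they may read each other's transcripts and do not count as separate measurements. As deposited they were not all nearly level like TIR3 and TIR4. PAU10 read 272, 242 and 140 in cultures 1, 2 and 3 and PAU13 254, 171 and 132, while PAU3 read 78.3, 71.1 and 63.5. Of the 11 genes with their highest deposited signal in culture 1, 6 were PAU genes and 1 was TIR4, by a margin of 0.01 (log2). Those remaining were AQY1, SNR67, TSA2 and YIL171W, which were named after their values were seen. This share of PAU genes is a description and was not tested.

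None of the 6 measured TIR and DAN genes and 9 of 16 other cell wall mannoproteins were bright, beside 10% of all genes, and a count of none among 6 is near that share. In that list 1 gene was dim, FIT1 at 35.8 ± 12.04 (SD, n = 3). CWP2 and CWP1, the wall proteins that TIR and DAN proteins are known to replace, read 3726 ± 1340 and 255 ± 78.4, and CCW12 was the highest at 8109 ± 1064. These values are each gene's own probe set and give no ratio between genes. In culture 1 the 15 that were not dim had a median deviation of 0.22, with 0.51 for SED1 and 0.47 for CCW12 but 0.13 for CWP2. At a common median 10 of 15 were highest there, beside 32.1% of all genes that were not dim. FIT3, a mannoprotein of iron uptake, varied most in the list, with 0.40, -0.86 and 0.45 in cultures 1, 2 and 3. In the list 3 of 15 ranged over 2-fold, beside 3.49% of all genes that were not dim.

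Of 13 genes listed here as regulators of the TIR and DAN genes 4 were dim and none was bright. Beside these stand 30.0% and 10% of all genes, so the dim count is near the share over the array. The link of each listed gene to the TIR and DAN genes was not tested. UPC2, the activator, was lowest at 15.7 ± 2.43 (SD, n = 3), under the sense-strand controls, and the repressor gene MOT3 read 17.0 ± 5.81. ROX1, the heme-dependent repressor, read 52.6 ± 28.2, and the corepressor genes CYC8 and TUP1 read 192 ± 61.9 and 188 ± 72.4. Among the 9 that were not dim, none ranged over 2-fold at a common median, which is near the 3.49% of all genes that were not dim. Of these 9, 1, SUT2, was highest in culture 1, beside 32.1% of all genes that were not dim. In that culture the median deviation was 0.21 for the 5 TIR and DAN members that were not dim and -0.06 for these 9 listed genes. The members were split, with TIR3 and TIR4 at 0.63 and 0.76, TIR1 at 0.21, and TIR2 and DAN4 at -0.11 and -0.09. The last 2 lay under the median of the 9.

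Genes known for their response to oxygen were read as a check on the label of aerobic culture. None of 6 aerobic counterparts was dim and 5 were bright, with cytochrome c (CYC1) at 1642 ± 588 and the translation factor HYP2 at 5436 ± 1273 (SD, n = 3), and the lowest was the mitochondrial ADP/ATP carrier AAC1 at 400.0 ± 142. Of 16 other hypoxic genes 7 were dim, including ANB1, the hypoxic partner of HYP2, at 21.1 ± 11.9 and AAC3, a mitochondrial carrier, at 8.12 ± 1.51, and 3 were bright, beside 30.0% and 10% of all genes. The bright ones were NCE103, OLE1 and ERG11, enzymes that aerobic cells also use, with ERG11 at 2346 ± 856. The 9 that were not dim also included FRD1 at 248 ± 67.1, HEM14 at 123 ± 27.7, OSM1 at 107 ± 55.1 and CYC7 at 67.1 ± 31.3. The hypoxic list was thus not low as a whole. FET4, a low-affinity iron transporter, had the largest SD of the list but was dim at 10.3 ± 3.10. Among the 9 that were not dim none ranged over 2-fold at a common median and 4 were highest in culture 1. Both counts are near the shares over all genes that were not dim, 3.49% and 32.1%. The median deviation of these 9 in culture 1 was 0.14. Of the 6 aerobic counterparts 4 were highest in culture 1, beside the same 32.1%, with a median deviation there of 0.096.

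In culture 1, where the 5 members that were not dim had a median deviation of 0.21, the lists of cold growth, sterol handling and wall attachment had medians of 0.19, -0.09 and -0.16 over their genes that were not dim. In that culture the member median was close to that of the cold list and to the 0.22 of the other cell wall mannoproteins. In cultures 2 and 3 the members had medians of -0.13 and -0.18 and the cold list -0.21 and -0.01. At a common median 6 of the 8 cold genes that were not dim were highest in culture 1, as were 10 of 15 other cell wall mannoproteins. Beside these stand 32.1% of all genes that were not dim. Whether the members are like the cold list in particular was not tested. Of 9 cold-responsive genes 4 were bright and 1, BFR2, was dim at 37.02 ± 15.7 (SD, n = 3), beside 10% and 30.0% of all genes. The 8 that were not dim included the wall mannoprotein gene TIP1, whose SD was the largest. The sterol list, which holds uptake, synthesis, esterification and hydrolysis genes, had 4 dim members of 8, beside 30.0% of all genes. In it HMG2 was highest at 264 ± 118 and ARE2 lowest at 14.4 ± 2.64. ARE1, a sterol acyltransferase, had the largest SD in that list, with deviations of -0.01, -0.61 and 0.62. In the list of GPI anchoring and mannosylation 3 of 16 were dim and 1 was bright, PMT2 at 839 ± 321. Both counts are near the 30.0% and 10% of all genes. GPI2 was lowest at 28.9 ± 14.03. Of its 13 members that were not dim 1 was highest in culture 1, beside 32.1% of all genes that were not dim. GAA1, a subunit of the enzyme that attaches the anchor, had the largest SD in that list, with -0.54 in culture 1.

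**Figure D4:**
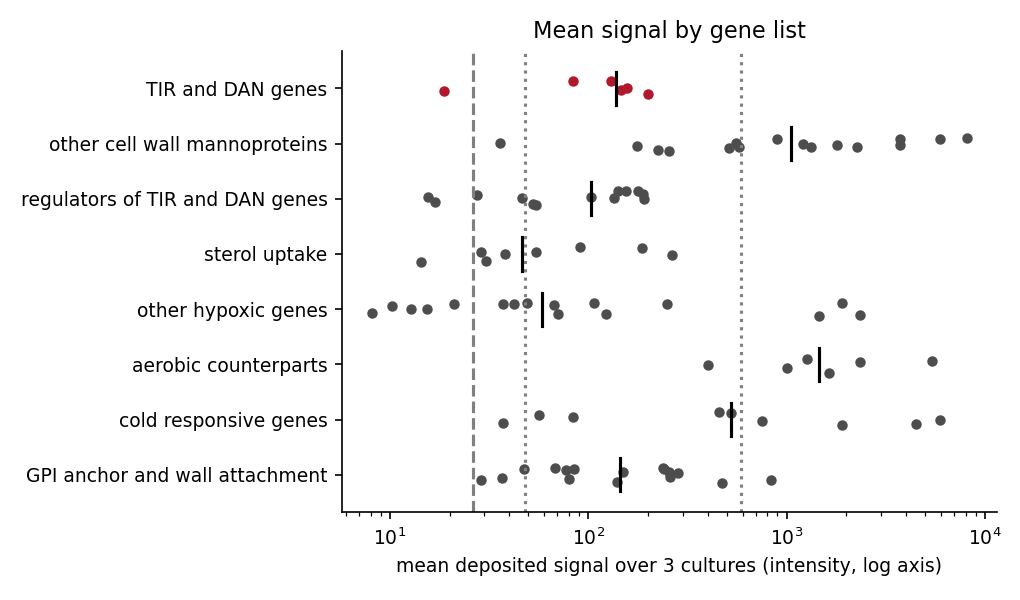
Mean deposited signal over the 3 cultures (intensity, log axis) of each gene, by list, with the TIR and DAN genes in red in the top row and the median of each list as a black bar. The 6 TIR and DAN genes span 18.8 to 200.1, while most aerobic counterparts and several other wall mannoproteins lie above the bright limit of 590 (right dotted line; left dotted line, limit for dim; dashed line, highest sense-strand control).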

How the data were processed

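RNA from 3 chemostat cultures was labelled with biotin and hybridized to 1 Affymetrix array each, per the labels' protocols. The deposited values are probe set intensities on a linear scale. Of software, the submitters' processing notes name GCOS, and no source used here gives the summary method, background correction or scaling. Of 9335 probe sets 60 were Affymetrix controls, and 6504 were annotated to 1 gene, all matched by gene ID to the RefSeq table. Each gene was represented by the probe set with digits and _at and no letter code, otherwise by that with the higher mean. Values under 1 were set to 1 before log2. For the common median, the median deviation of the 3959 genes that were not dim was set to 0 on each array, and deviations were then taken again from each gene's new mean, which left a median of 0.01. With 1 group no test was made. Named genes are the members, their measured chromosomal neighbours, the highest, lowest and most variable gene of each list, and the nearest genes in course; others were chosen after their values were seen. Members and lists were chosen with earlier results of these data known. Of the list entries, 2 of the regulators and 1 of the aerobic genes were not matched. Alternatives were other scalings (limma 3.58.1 in R 4.3.3 for quantile and cyclic loess), offsets, floors, limits for dim and leaving out each culture. Other steps used Python 3.11.15, numpy 2.4.6 and pandas 2.3.3, and the range step was tested on simulated data. No sequences of these genes were used here.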

Additional observations from a re-analysis of the deposited data

How the results depend on the processing

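The count of members over 2-fold between cultures was 3 at a common median and 2 or 3 under every other scaling, offset, floor or probe set rule tried, but as deposited and with the hybridization controls, a scaling added after the data were seen, these were different members. The like count thus stood beside unlike shares of the genes that were not dim. These were 75.5% as deposited and 59.4% with the hybridization controls, and 2.22% to 3.69% in the other settings. Leaving out a culture gave 0 to 3, with 0 without culture 1, 2 without culture 2 and 3 without culture 3, beside 1.92%, 0.758% and 2.45% of genes that were not dim. The median deviation of the members is given here over all 6 measured members, DAN1 included. At a common median it was 0.42 in culture 1, against 0.21 for the 5 that were not dim. In culture 1 the median of the 6 was -0.25 as deposited and -0.20 with the hybridization controls, where the median gene was at -0.66 and -0.61. Relative to it the 6 members lay 0.41 higher in both, which must be equal because these scalings shift whole arrays. In culture 2 it was 0.34 and 0.049, with the median gene at 0.55 and 0.25, and in culture 3 it was 0.13 with the hybridization controls, with the median gene at 0.38. Leaving out a culture gave 0.28 to 0.36 for culture 1, -0.28 to -0.04 for culture 2, and -0.36 to 0.041 for culture 3, the last being the value without culture 1. With signals floored at the sense-strand controls the medians in cultures 1, 2 and 3 were 0.22, -0.12 and -0.15. The count of dim members was 1 in the main setting, 0 with the limit at the 10th percentile, 2 with it at the 50th, and 1 in each of the other settings and without any 1 culture. The range of TIR3 passed under 2-fold with log2(signal + 16), at 0.95. No paired analysis was possible because the cultures form 1 group. Brightness near the sense-strand controls limits what DAN1 and other genes read under them, such as UPC2, MOT3, AAC3 and FET4, can show.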
